A study of Mus musculus with 37 samples.

Results

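The transmembrane channel-like (Tmc) family of the mouse has 8 genes, Tmc1 to Tmc8, and all 8 were found by Ensembl identifier among the 48795 genes of the hippocampal count table. The family was chosen by its names with earlier results of the same comparison in view, so the values of its members in that comparison are a description and support nothing beyond themselves. RNA was sequenced from the hippocampi of 3 control and 3 Kdm1a-ifKO male mice, 1 library per mouse. Kdm1a-ifKO mice carried Camk2a-creERT2, which acts in forebrain principal neurons, and Kdm1a f/f alleles with loxP sites around exons 5 and 6. Controls were littermates without the recombinase, and both groups received tamoxifen, from 8 weeks of age. All mice had a C57BL/6J background, and the age at which this RNA was collected is not given in the sources used here. Kdm1a encodes a demethylase of lysine 4 of histone H3. CTCF ChIA-PET, which maps DNA contacts between sites bound by CTCF, came from 1 library of hippocampal nuclei of tamoxifen-treated male mice, labelled WT and Camk2a+. By the study's methods such nuclei were sorted by GFP from 12-week-old Camk2a-creERT2 x CAG-Sun1/sfGFP mice.

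TMC proteins span the membrane many times and are distant relatives of the anoctamins and the TMEM63 channels. TMC1 and TMC2 form the pore of the mechanically gated channel of inner-ear hair cells, where they work with TMIE, LHFPL5, CIB2 and the tip-link cadherin PCDH15. TMC6 and TMC8, also called EVER1 and EVER2, bind CIB1, are abundant in lymphocytes, and their loss in people causes epidermodysplasia verruciformis, an unusual susceptibility of the skin to papillomaviruses.

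The 6 libraries held between 18985542 and 19469947 counts. Kdm1a itself was at 79.5, 81.1 and 79.6 CPM (counts scaled to the library size) in control replicates 1 to 3 and at 39.3, 36.9 and 38.4 CPM in Kdm1a-ifKO replicates 1 to 3. The whole hippocampus was sequenced, so cells in which the recombinase is not active are included. The excitatory neuron markers Camk2a and Slc17a7 were at 4642 ± 111 and 1403 ± 65.7 CPM in controls (mean ± SD, n = 3). RNA of excitatory neurons was thus abundant, which does not by itself single out the hippocampus. All 5 excitatory neuron markers were present and summed to 6391 to 6707 CPM in controls and 6301 to 6985 CPM in Kdm1a-ifKOs. Neurod6, a transcription factor of pyramidal neurons, fell from 203 ± 8.41 to 159 ± 14.3 CPM (log2FC -0.36, adjusted p = 0.00419 by edgeR), and the other 4 were not called. In all bulk values that follow, fewer cells of a type and less RNA per cell cannot be told apart.

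Tmc6 and Tmc8, the members that were called in the comparison of genotypes, lie head to head. On chromosome 11 (GRCm38, GENCODE M21), Tmc6 lies on the minus strand at chr11:117765988-117782198 and Tmc8 on the plus strand at chr11:117782076-117793110, so that they run away from each other and their annotated bodies overlap by 123 bases at the 5′ ends. RefSeq places both starts further inside the genes, 1605 bases apart. The RefSeq (GRCm38.p6) windows from 250 bases before to 50 bases after each start are given here because both contain the palindrome CACGTG, an E-box, which is in capitals. The window of Tmc6 is chr11:117780643-117780942 on the minus strand, and that of Tmc8 is chr11:117782047-117782346 on the plus strand.
Tmc6: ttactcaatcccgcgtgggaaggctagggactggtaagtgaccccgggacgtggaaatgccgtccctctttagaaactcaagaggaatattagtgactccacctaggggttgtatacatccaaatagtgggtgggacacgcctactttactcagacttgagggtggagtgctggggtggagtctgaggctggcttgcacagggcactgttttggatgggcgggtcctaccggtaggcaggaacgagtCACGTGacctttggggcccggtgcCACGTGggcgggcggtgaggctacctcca
Tmc8: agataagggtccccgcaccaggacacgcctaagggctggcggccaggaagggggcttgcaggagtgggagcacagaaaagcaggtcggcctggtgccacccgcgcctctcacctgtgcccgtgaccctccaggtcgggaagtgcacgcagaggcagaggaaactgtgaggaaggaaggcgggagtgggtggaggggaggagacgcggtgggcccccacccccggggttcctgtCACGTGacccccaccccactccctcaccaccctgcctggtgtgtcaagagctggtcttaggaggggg
The E-boxes of Tmc6 began 3 bases before and 21 bases after the RefSeq start, and that of Tmc8 began 17 bases before it. CACGTG reads the same on both strands, and 7.15% of the 32851 promoter windows of this length in the table contained it. It was looked for after these sequences had been read, and the match is a description, not a binding site. Of the 6 members with a promoter window (Tmc1, Tmc3, Tmc4, Tmc6, Tmc7 and Tmc8), only Tmc6 and Tmc8 held the palindrome. The Tmc6 and Tmc8 windows each had 14 CpG dinucleotides, Tmc7 had 22, Tmc4 had 6, Tmc3 had 2 and Tmc1 had 1, against a median of 7 over all windows.

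Levels differed widely between the members. On the TPM scale, in which counts are divided by summed exon length before scaling to the library, Tmc7 was the most abundant in controls at 14.0 ± 1.55 TPM (SD, n = 3). Tmc4 followed at 7.46 ± 0.343 TPM and Tmc6 at 6.78 ± 0.128 TPM. These 3 genes stood apart from each other, with no overlap of neighbouring ranges over the 3 control libraries, and 44.6%, 31.9% and 30.3% of the tested genes had a lower control level. Tmc8 was at 0.457 ± 0.169 TPM, Tmc3 at 0.248 ± 0.0298 TPM and Tmc5 at 0.235 ± 0.0798 TPM. The ranges of Tmc8 and Tmc3 overlapped, as did those of Tmc3 and Tmc5, so their order is not settled. Tmc1 was lower still at 0.0486 ± 0.0333 TPM, and Tmc2 had no count in any control library, which allows up to 3 counts in each. The pore subunits of the hair-cell channel were thus at or near the floor of these libraries. The hair-cell transcription factor Pou4f3 was likewise near 0, at 0.0179 ± 0.031 CPM in controls and 0 in Kdm1a-ifKOs. Of the other genes of the hair-cell list, Loxhd1 (0.265 CPM) and Myo15 (0.634 CPM) were low in controls. Otof (13.4 CPM), Slc17a8 (4.6 CPM) and Strc (4.04 CPM) were higher there.

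**Figure D1:**
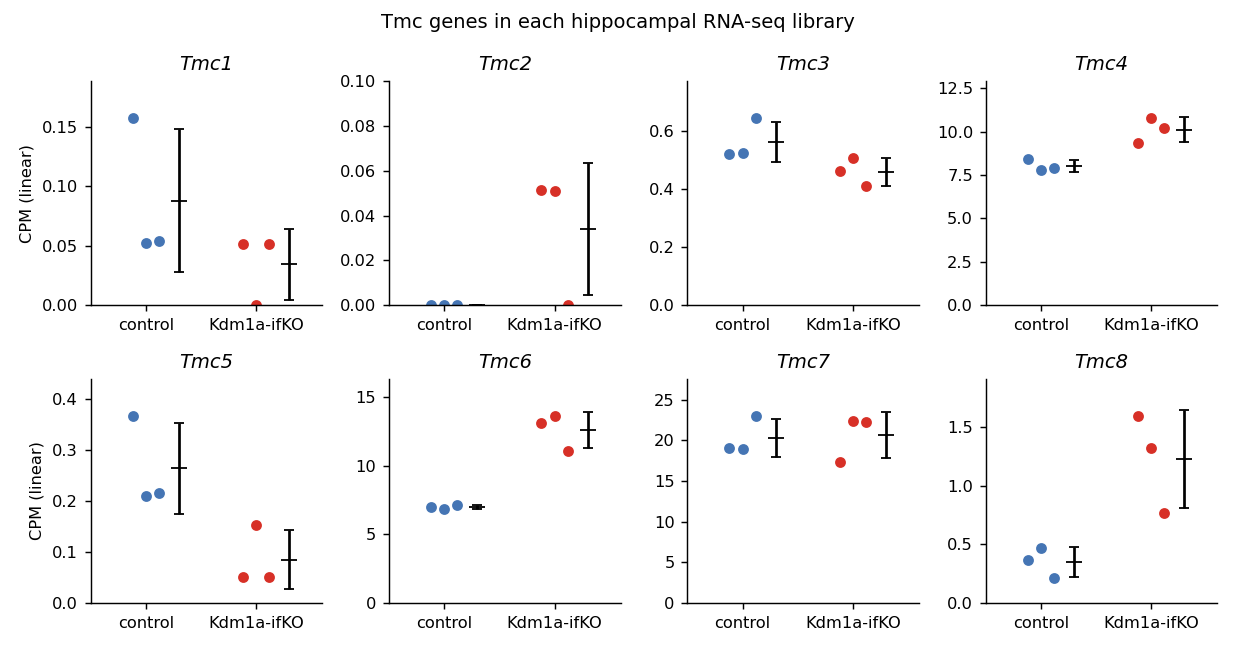
CPM (linear axis from 0, a separate scale per gene) of each Tmc gene in the 3 control (blue) and 3 Kdm1a-ifKO (red) libraries, with the mean ± SD in black. Tmc6, Tmc8 and Tmc4 are higher in every Kdm1a-ifKO library than in any control library, Tmc7 overlaps, and each point of Tmc1 and Tmc2 stands for at most 3 counts.

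Tmc6 increased in Kdm1a-ifKOs. It had 134, 130 and 132 counts in control replicates 1 to 3, or 7.01, 6.83 and 7.09 CPM. In Kdm1a-ifKO replicates 1 to 3 it had 255, 268 and 216 counts, or 13.1, 13.6 and 11.1 CPM. The control libraries lay within a narrow band and every Kdm1a-ifKO library lay well above it. The log2FC of Kdm1a-ifKO over control was 0.85 (SE 0.113, 95% interval 0.61 to 1.10), and the quasi-likelihood test of edgeR over all 16799 tested genes gave it an adjusted p of 0.000346.

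Tmc8 increased by a larger ratio from a much lower level. It had 7, 9 and 4 counts in the controls and 31, 26 and 15 counts in Kdm1a-ifKOs. No Kdm1a-ifKO library reached down to the controls, although Kdm1a-ifKO replicate 3 was closer to them than to replicate 1. The mean rose from 0.351 ± 0.129 to 1.23 ± 0.42 CPM (SD, n = 3), and the log2FC was 1.78 (SE 0.397, 95% interval 0.93 to 2.64, adjusted p = 0.0135 by edgeR). Tmc8 passed the filter on low counts only through its Kdm1a-ifKO libraries, and without Kdm1a-ifKO replicate 1 its adjusted p was 0.07 at a log2FC of 1.55. For each 100 counts of Tmc6 there were 5.22, 6.92 and 3.03 counts of Tmc8 in the controls and 12.2, 9.7 and 6.94 in Kdm1a-ifKOs. The ratio was highest in Kdm1a-ifKO replicates 1 and 2, while that of replicate 3 was level with control replicate 2.

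Among the 8 members, 2 were called higher and 0 lower, where the threshold is an adjusted p of 0.05. Over the whole table, 6.04% of the tested genes were called higher and 2.82% lower, and the median log2FC of all tested genes was -0.0034. The comparison is the contrast in which the family was proposed, so nothing is read from the count of members against these shares. Of the 8 members 5 passed the filter on low counts, and Tmc1, Tmc2 and Tmc5 did not.

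**Figure D2:**
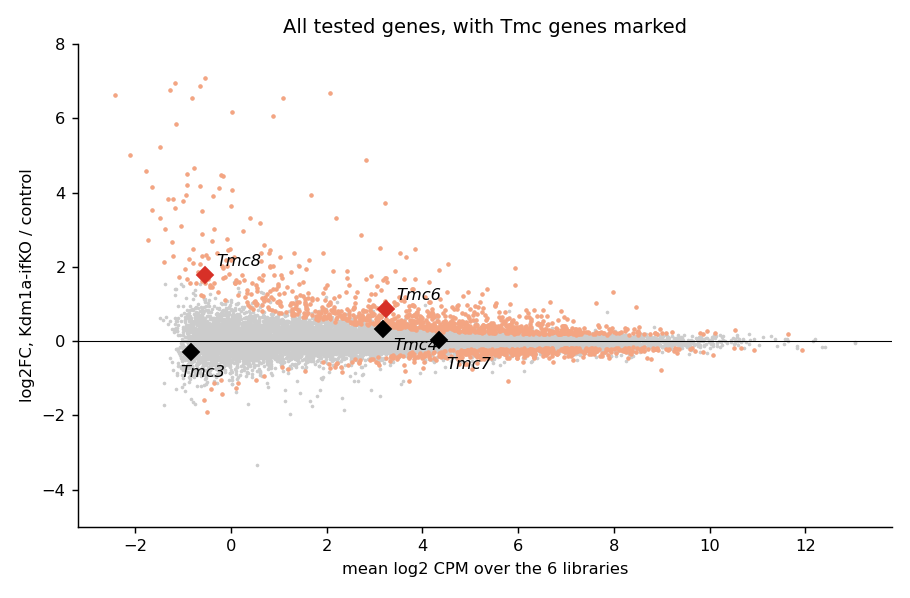
log2FC of Kdm1a-ifKO over control (vertical axis) against the mean log2 CPM over the 6 libraries (horizontal axis) for the 16799 tested genes in grey, with genes called at an adjusted p under 0.05 in orange and the 5 tested Tmc genes as diamonds, red where called. Tmc6 (0.85) and Tmc8 (1.78) are called, while Tmc4 (0.33), Tmc7 (0.03) and Tmc3 (-0.29) are not.

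Tmc4 did not pass the threshold. Its values were 8.42, 7.77 and 7.9 CPM in the controls and 9.36, 10.8 and 10.2 CPM in Kdm1a-ifKOs. All Kdm1a-ifKO libraries were above all control libraries, a pattern that 15.7% of the tested genes showed. The log2FC was 0.33 (SE 0.109, 95% interval 0.10 to 0.57, adjusted p = 0.0787 by edgeR). Tmc4 lies at chr7:3665790-3677553 on the minus strand, shares 51 bases with Leng1 on the same strand and has 594 exon bases under exons of the opposite strand, where Gm15929 lies, which had at most 0.105 CPM on average in either group.

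Tmc7, the most abundant member, was nearly level. It had 364, 361 and 428 counts in the controls and 338, 442 and 433 counts in Kdm1a-ifKOs, or 20.3 ± 2.31 and 20.7 ± 2.86 CPM (SD, n = 3), with the groups interleaved. Its log2FC of 0.03 had a 95% interval of -0.22 to 0.27, which bounds the change that these libraries allow. Tmc3 had 10, 10 and 12 counts in the controls and 9, 10 and 8 counts in Kdm1a-ifKOs (log2FC -0.29, 95% interval -1.07 to 0.49). Its groups touched at 10 counts, and by CPM the Kdm1a-ifKO libraries were the lower ones. Of the 9027 exon bases of Tmc3, 3961 lie under exons of Gm16638 on the opposite strand, which was the more abundant of the 2 at 5.5 ± 0.506 CPM in controls. Divided by its unshared exon bases only, Tmc3 was at 0.443 ± 0.0532 TPM in controls.

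The remaining members were too sparse for the test. Tmc5 had 7, 4 and 4 counts in the controls and 1, 3 and 1 counts in Kdm1a-ifKOs, so all Kdm1a-ifKO libraries were lower. Its summed counts of 15 and 5 gave a ratio of Kdm1a-ifKO to control of 0.327, with an exact binomial 95% interval of 0.0931 to 0.947 that covers counting error only. When the filter on low counts was dropped, its log2FC was -1.56 with an adjusted p of 0.301 in edgeR. Tmc1 had 3, 1 and 1 counts in the controls and 1, 0 and 1 counts in Kdm1a-ifKOs (ratio 0.393, interval 0.0374 to 2.4). Tmc2 had 0 counts in the controls and 1, 1 and 0 counts in Kdm1a-ifKOs, and both groups were under the floor of 3 counts. Differences in Tmc1 and Tmc2 were not detectable at this depth.

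Because Tmc6 and Tmc8 overlap on opposite strands and the strand setting of the counting is not stated, how reads in the shared stretch were counted is not known. The exposed stretch was short for Tmc6, where 40 of its 4091 exon bases lie under opposite-strand exons. For Tmc8, 325 bases do so, which include exons of Gm11723 and Gm11724. Both of these had 0 counts in all 6 libraries. Across the table, 452 genes had every exon base under an exon of the opposite strand, and 18 of them (3.98%) had any count, against 53.9% of the 39849 genes with no such base. Whether reads in such stretches went uncounted was not tested.

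TMC6 and TMC8 are known from lymphocytes, so markers of these and other cells were read beside them. The summed level of 6 T-cell markers was 2.1 to 3.94 CPM in controls and 3.59 to 4.01 CPM in Kdm1a-ifKOs, nearly all of it from Lck, a kinase also found in neurons. The listed genes Cd3d, Cd3e, Cd3g and Cd2 averaged at most 0.0514 CPM in either group. Cd8a averaged 0.0349 CPM in controls (2 counts in all) and 0.102 CPM in Kdm1a-ifKOs (6 counts). The 5 B-cell markers summed to 1.05 to 1.51 CPM in controls and to 0.667 to 0.812 CPM in Kdm1a-ifKOs, where they were lower. The 4 NK-cell markers summed to at most 0.161 CPM in any library, with Klrb1c and Prf1 at 0 throughout. Microglial markers were higher in Kdm1a-ifKOs, as were Tmc6 and Tmc8: the 5 markers summed to 258 to 285 CPM in controls and to 298 to 379 CPM in Kdm1a-ifKOs. Among the Kdm1a-ifKO libraries, replicate 3 had the highest sum (379 CPM) and the lowest Tmc6 and Tmc8, and replicate 1 had the lowest sum (298 CPM) and the highest Tmc8. Of these 5, Cx3cr1 (log2FC 0.27, adjusted p = 0.0208), Csf1r (0.33, adjusted p = 0.0377) and Tmem119 (0.42, adjusted p = 0.0462) were called higher by edgeR, while P2ry12 (0.20) and C1qa (0.37) were not. All 5 were higher at an unadjusted p of 0.05, and 4 were called by DESeq2. Their direction was the same in the 12 alternative fits for each of the 3 called genes (log2FC 0.24 to 0.42 for Csf1r, 0.23 to 0.33 for Cx3cr1 and 0.27 to 0.51 for Tmem119), but the calls depended on single libraries. That of Csf1r was lost without any 1 of the control libraries or of Kdm1a-ifKO replicates 2 and 3 (adjusted p between 0.0805 and 0.113), that of Cx3cr1 without control replicates 1 or 2 or Kdm1a-ifKO replicates 2 or 3 (0.0507 to 0.105), and that of Tmem119 without any 1 of the controls or Kdm1a-ifKO replicate 3 (0.0729 to 0.12). The part of microglia, or of the other cells, in the rise of Tmc6 and Tmc8 was not tested. Epithelial markers (1.57 to 2.47 CPM in controls, 1.39 to 3.45 CPM in Kdm1a-ifKOs) and ependymal markers (16.6 to 25.1 and 16.1 to 23.8 CPM) overlapped between the groups. So did the choroid plexus markers (9.73 to 37.3 and 4.99 to 12.4 CPM) and the hair-cell markers (22.4 to 23.2 and 21.2 to 23.7 CPM). Among hair-cell markers, Slc17a8 was called lower (log2FC -0.57, adjusted p = 0.0475 by edgeR), a call that 10 of the 12 alternative fits lost, each fit without 1 library included (adjusted p between 0.0509 and 0.142 over the 10). Myo15 was higher in every Kdm1a-ifKO library but was not called (log2FC 0.80, adjusted p = 0.101 by edgeR).

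The neighbourhood of Tmc6 and Tmc8 was then examined gene by gene. On the far side of Tmc6, Tnrc6c, a partner of Argonaute in microRNA silencing, averaged 172 ± 1.33 CPM in control mice against 156 ± 6.17 CPM (SD, n = 3; log2FC -0.15, adjusted p = 0.0912 by edgeR). On the far side of Tmc8, Syngr2, a vesicle membrane protein, was at 8.21 ± 0.412 and 11.3 ± 2.95 CPM (log2FC 0.46, adjusted p = 0.139). Neither flanking gene passed the threshold, although Syngr2 did so without Kdm1a-ifKO replicate 1 (log2FC 0.67, adjusted p = 0.00581).

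Beyond Syngr2, a run of 3 genes increased together with Tmc6 and Tmc8. Tk1, the thymidine kinase of the salvage pathway, was at 1.62, 1.84 and 1.18 CPM in the controls and at 5.25, 4.32 and 4.01 CPM in Kdm1a-ifKOs (log2FC 1.54, SE 0.206, adjusted p = 0.000372 by edgeR). Afmid, an enzyme of tryptophan breakdown, rose from 0.575, 1.26 and 0.645 CPM to 2.47, 2.13 and 3.49 CPM (log2FC 1.70, SE 0.309, adjusted p = 0.00419). Birc5, or survivin, an inhibitor of apoptosis that also serves chromosome segregation, rose from 1.15, 1.1 and 1.18 CPM to 3.39, 2.39 and 3.39 CPM (log2FC 1.41, SE 0.223, adjusted p = 0.00144). None of the 3 genes had overlapping groups. All 3 calls were kept under the 12 alternative fits. Tha1, beyond Birc5 and 74.8 kb from Tmc8, was at 4.46 ± 0.096 and 4.76 ± 0.569 CPM (log2FC 0.09, adjusted p = 0.751 by edgeR), with overlapping groups. Birc5 and Tha1 fall outside the rule for named genes and were named after their values had been seen. Tk1 and Afmid overlap at their starts on opposite strands, with 83 exon bases of each under exons of the other strand. Of the 3539 exon bases of Afmid only 1890 are unshared, since Gm20708, on the same strand, runs from Syngr2 through Afmid. Gm20708 had 0 counts in the controls and 1 count in each Kdm1a-ifKO library, and the level of Afmid is uncertain for this reason.

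**Figure D3:**
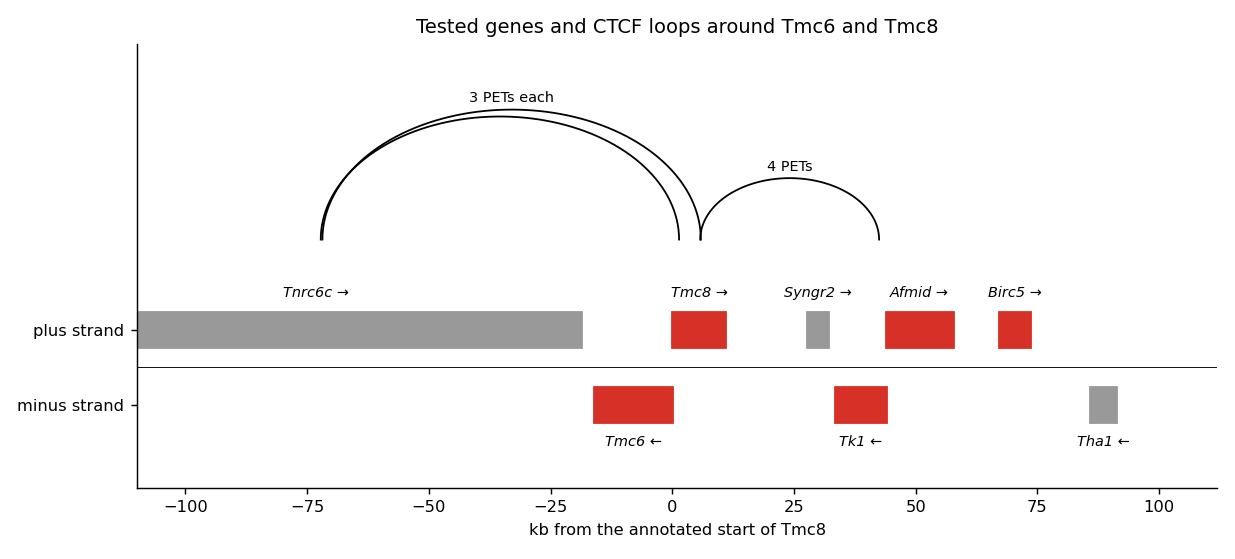
Tested genes within 100 kb of Tmc6 and Tmc8 as boxes on their strand (arrows give the direction of transcription; red, called higher; grey, not called), with kb from the annotated start of Tmc8 on the horizontal axis. Arcs join the midpoints of CTCF loop anchors and are labelled with their paired-end tags; arc height follows the span, Tnrc6c runs past the left edge, and the loop that spans 394 kb is left out.

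CTCF loops at this locus were thinly covered. Of the 27786 loops, each of at least 3 paired-end tags (PETs), 4 had an anchor within 10 kb of Tmc6, and the same 4 were within 10 kb of Tmc8. The tested genes had a median of 1 loop by this rule, with quartiles of 0 and 4. All 4 near anchors at this locus lay inside the body of Tmc8. The best covered loop, with 4 PETs, ran 36.7 kb from chr11:117787525-117788119 to chr11:117823957-117825176, inside Tk1 and within 10 kb of Syngr2 and Afmid. A pair of loops with 3 PETs each ran to Tnrc6c, and another with 3 PETs ran 394 kb to a site with no tested gene within 10 kb. By comparison, 47.5% of all loops had 3 or 4 PETs, and the median was 5. None of the 4 remained at a minimum of 5 PETs. The whole of Tmc6 lay within 14 loops, among them those from Tmc8 to Tnrc6c, the shortest of which spanned 73.6 kb. The whole of Tmc8 lay within 11 loops, the shortest of 116 kb. The loops come from a single library without the Kdm1a deletion, so they carry no replicate error and no comparison between genotypes.

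The other members differed in how they were looped. The adjacent genes Tmc7 and Tmc5, at chr7:118535841-118584736 and chr7:118597297-118675086, shared the loop with the highest coverage in the family. It had 44 PETs, more than 95.8% of all loops, and ran 95.8 kb from the stretch between both genes to Gde1, a glycerophosphodiester phosphodiesterase which averaged 153 ± 4.35 CPM in control mice and 151 ± 3.89 CPM after the deletion. Tmc7 and Gde1 both lay close to 0 on the log2FC scale (0.03 and -0.02). Tmc5 was too sparse for the test, with 15 counts in controls and 5 in Kdm1a-ifKOs, and was lower in every Kdm1a-ifKO library. The anchor between both genes also overlaps B230311B06Rik, which was not called (log2FC 0.07). Tmc2, at chr2:130195194-130264445, had 5 loops of up to 12 PETs, including that anchored outside its body at the neighbouring gene Nop56, and its level was at the floor. Tmc3, at chr7:83584927-83625614, had 2 loops of 11 and 3 PETs, Tmc4 had 2 of 7 and 5 PETs, and Tmc1, at chr19:20783458-20954202, had 1 of 4 PETs. In all, 16 different loops came within 10 kb of a member and every member had at least 1, while 49.1% of the 21695 protein-coding genes in the count table and 56.9% of the tested genes had at least 1. In these 8 genes the number of loops did not run parallel to the level, since Tmc2, with the most loops by the 10 kb rule, had no count in controls.

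The anchors were read for a core of the CTCF motif, CCNNNAGNNGGC, on both strands within the central 500 bases of each anchor. Of the 32 anchors of the 16 loops, 4 held it, while 24.8% of the 55480 anchors in the whole library did and 8.9% of windows placed 50 kb away from them did. Matches at the Tmc6 and Tmc8 locus and in the loops of 12 and 11 PETs are written here. The letters read 5′ to 3′ on their own strand, in capitals with 20 bases on either side. They come from the Tnrc6c anchor of a Tmc8 loop (chr11:117710169-117710220, plus strand), the Tmc2 anchor of the loop of 12 PETs (chr2:130247097-130247148, minus strand) and the far anchor of the Tmc3 loop of 11 PETs (chr7:83568891-83568942, plus strand).
Tnrc6c anchor: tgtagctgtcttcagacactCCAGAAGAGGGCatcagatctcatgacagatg
Tmc2 anchor: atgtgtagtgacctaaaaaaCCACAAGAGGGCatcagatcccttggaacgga
Tmc3 far anchor: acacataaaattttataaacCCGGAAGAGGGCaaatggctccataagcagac
The remaining match, at the far anchor of the Tmc4 loop of 5 PETs (chr7:4427991-4428042, minus strand), is not printed. Neither anchor of the loop between Tmc8 and Tk1 contained these letters in its central window, which says nothing about CTCF binding there. The same holds for both anchors of the loop of 44 PETs at Tmc5 and Tmc7.

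At the far anchors of the 16 loops lay 13 tested genes other than members, of which 3 were called higher and 0 lower by edgeR (6 and 1 at an unadjusted p of 0.05, and 3 and 0 by DESeq2), where 6.04% and 2.82% of all tested genes were called. Tk1 and Afmid were described above, and the third was Ebf4, a transcription factor of the early B-cell factor family, at the far anchor of a loop of 4 PETs. The near anchor of that loop lies outside Tmc2 and overlaps Nop56, which begins 9985 bases beyond Tmc2. Ebf4 was at 14.3, 14.9 and 15.3 CPM in the controls and at 21.7, 21.8 and 23.9 CPM in Kdm1a-ifKOs (log2FC 0.60, SE 0.08, adjusted p = 0.000369 by edgeR). The groups were far apart for their spread. Idh3b, a subunit of mitochondrial isocitrate dehydrogenase at the same anchor, was at 271 and 254 CPM on average (log2FC -0.09).

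Within 100 kb of the 6 places in the genome where Tmc genes lie, 32 other genes were tested, of which 6 were called higher and 0 lower by edgeR (10 and 5 at an unadjusted p of 0.05, and 6 and 0 by DESeq2), again beside 6.04% and 2.82% of all tested genes. They were Tk1, Afmid and Birc5 near Tmc6 and Tmc8, Ebf4 near Tmc2, and Itpripl2 and Syt17 near Tmc7. Itpripl2 and Syt17 were also named after their values had been seen. Itpripl2, 43.9 kb from Tmc7, was at 7.27, 6.88 and 9.51 CPM in the controls and at 16.6, 15.7 and 14.6 CPM in Kdm1a-ifKOs (log2FC 0.99, SE 0.123, adjusted p = 0.000199). Syt17, a synaptotagmin 87.6 kb away, rose less (log2FC 0.34, SE 0.0634, adjusted p = 0.00426). Coq7, an enzyme of ubiquinone synthesis that lies between them and Tmc7, was at 20.8 ± 0.565 and 18.2 ± 1.25 CPM (log2FC -0.19, adjusted p = 0.155). Near Tmc3 and Tmc4 none of the 4 and 11 other tested genes was called, and near Tmc1 no other gene was tested.

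**Figure D4:**
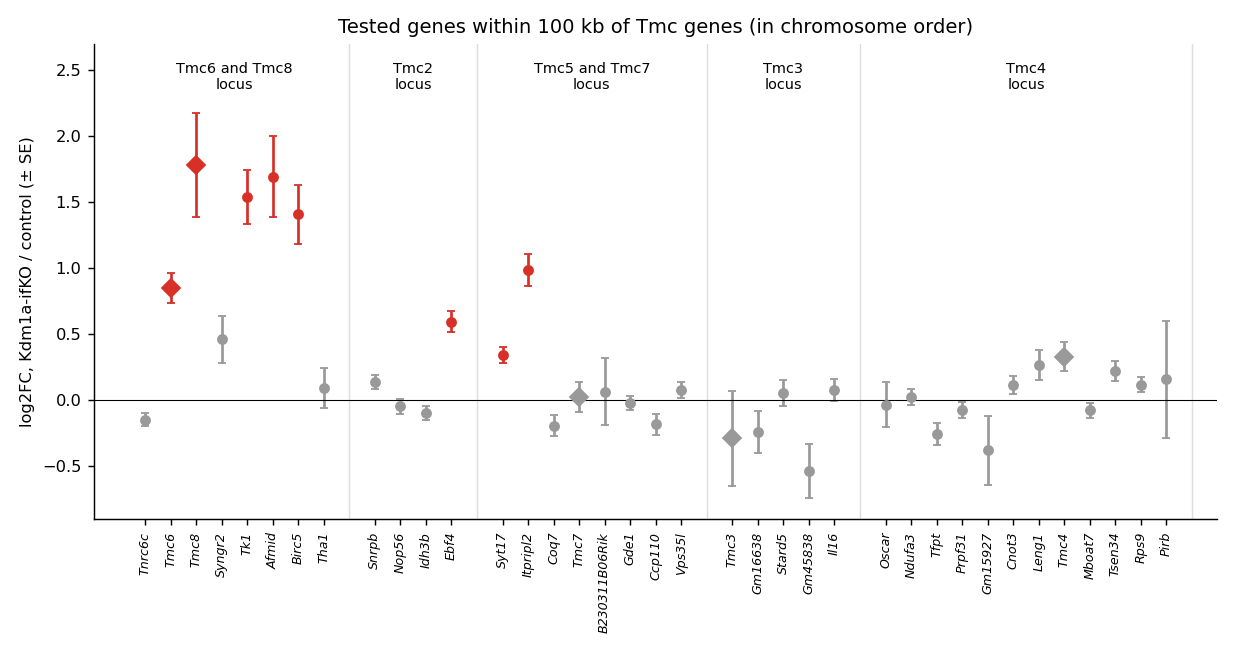
log2FC of Kdm1a-ifKO over control (vertical axis, bars are ± SE) for tested genes within 100 kb of a Tmc gene, in chromosome order within each locus; diamonds are Tmc genes and red marks genes called higher. Around Tmc6 and Tmc8, Tk1, Afmid and Birc5 lie between 1.41 and 1.70 while Tnrc6c is at -0.15, Syngr2 at 0.46 and Tha1 at 0.09. At the Tmc3 and Tmc4 loci no gene is called.

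The genes that overlap a member or lie next to it were not called. Of 19 such genes that are not members, 15 were tested, and 0 passed the threshold in edgeR. Over all tested genes, 6.04% were called higher and 2.82% lower. Among the 15 genes, 3 were higher and 3 lower at an unadjusted p of 0.05 in edgeR, and DESeq2 called 0 of them. They include Aldh1a1, a retinaldehyde dehydrogenase near Tmc1, with 55.8 ± 4.75 CPM in control and 47.9 ± 2.19 CPM in Kdm1a-ifKO libraries (SD, n = 3; log2FC -0.22, adjusted p = 0.0696, or 0.0242 without control replicate 2). Snrpb, a core protein of the spliceosome near Tmc2, was at 62.1 ± 0.723 and 68.6 ± 1.22 CPM (log2FC 0.14, adjusted p = 0.116). Mboat7, an acyltransferase of phosphatidylinositol 236 bases from Tmc4, was at 139 ± 6.05 and 132 ± 7.79 CPM (log2FC -0.08, adjusted p = 0.458). Stard5, a lipid carrier next to Tmc3, was at 22.3 ± 1.83 and 23.2 ± 2.83 CPM (log2FC 0.06, adjusted p = 0.778).

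Partners of the Tmc proteins with genes of zinc biology (2 lists) and related or other mechanosensitive channels (2 lists) came to 46 genes. Of these, 39 were tested, 8 called higher and 1 lower by edgeR, beside 6.04% and 2.82% of all tested genes. These lists were chosen with earlier results of the same data known. Nothing is therefore read from the counts of called genes against these shares, here or in each list below. Of 16 partners of Tmc1 and Tmc2 in the hair bundle, 11 were tested, 3 were called higher and 0 lower (3 and 0 at an unadjusted p of 0.05, and 3 and 0 by DESeq2), with a median log2FC of 0.02. Ush1g, a scaffold protein of the tip-link complex, rose from 0.575, 0.84 and 0.752 CPM to 3.55, 3.81 and 4.62 CPM (log2FC 2.46, SE 0.23, adjusted p = 1.4e-05). Cib2, a calcium-binding subunit of the channel complex, rose from 20.7 ± 1.13 to 28.1 ± 1.27 CPM (log2FC 0.44, adjusted p = 0.00211), and Whrn, a scaffold of the stereocilium tip, from 26.3 ± 1.07 to 35.4 ± 4.05 CPM (log2FC 0.43, adjusted p = 0.00656). The other subunits that travel with the pore did not pass. Tmie was at 2.52 ± 0.546 and 3.31 ± 0.925 CPM (log2FC 0.39, adjusted p = 0.333), Lhfpl5 at 2.03 ± 0.252 and 2.39 ± 0.178 CPM (log2FC 0.24, adjusted p = 0.5) and Pcdh15 at 15.3 ± 3.23 and 14.1 ± 3.35 CPM (log2FC -0.11, adjusted p = 0.792). On the TPM scale in controls, Cib2 (57.4) and Whrn (14.2) were far above Tmie (3.24), Lhfpl5 (3.37) and Tmc1 (0.0486).

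Among 8 genes of CIB1 and zinc biology, listed for Tmc6 and Tmc8, 2 were called higher and 0 lower (2 and 1 at an unadjusted p of 0.05, and 1 and 0 by DESeq2), with a median log2FC of 0.05. Cib1, the protein that TMC6 and TMC8 hold, was at 13.5, 10.8 and 12.3 CPM in the controls and at 18.5, 16.0 and 17.3 CPM in Kdm1a-ifKOs (log2FC 0.50, SE 0.102, adjusted p = 0.00804 by edgeR). It was higher in every Kdm1a-ifKO library, and its call was kept in all 12 alternative fits. Tradd, an adaptor of the tumour necrosis factor receptor, was called higher (log2FC 0.49, adjusted p = 0.0293), but 6 alternative fits lost that call (adjusted p between 0.0617 and 0.103), among them DESeq2 and those without control replicates 2 or 3 or without Kdm1a-ifKO replicates 1 or 3. The zinc exporter Slc30a1 was at 36.4 ± 3.02 and 31.0 ± 2.17 CPM (SD, n = 3; log2FC -0.23, adjusted p = 0.0853). The metallothioneins Mt1, Mt2 and Mt3 were at -0.03, -0.17 and 0.13 on the log2FC scale, none of them called.

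In the related families, Ano1 to Ano10 and Tmem63a to Tmem63c, 11 of 13 genes were tested, 1 was called higher and 1 lower, and the median log2FC was 0.09. Ano2, a calcium-activated chloride channel, rose from 2.16 ± 0.508 to 4.13 ± 0.963 CPM (log2FC 0.93, adjusted p = 0.0208 by edgeR), a call lost without control replicate 3 (adjusted p = 0.058), without Kdm1a-ifKO replicate 1 (adjusted p = 0.0559) or without Kdm1a-ifKO replicate 3 (adjusted p = 0.1). Ano3 fell from 145 ± 15.9 to 108 ± 6.78 CPM (log2FC -0.42, adjusted p = 0.00632). Of 9 other mechanosensitive channels, 2 were called higher and 0 lower (3 and 0 at an unadjusted p of 0.05, and 2 and 0 by DESeq2), with a median log2FC of -0.01. These were both Piezo channels, the large mechanically gated cation channels. Piezo2 was at 1.36, 0.84 and 1.51 CPM in the controls and at 4.47, 4.72 and 4.21 CPM in Kdm1a-ifKOs (log2FC 1.85, SE 0.215, adjusted p = 0.000107), and Piezo1 rose from 5.56 ± 0.695 to 10.5 ± 1.19 CPM (log2FC 0.91, SE 0.134, adjusted p = 0.000784).

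**Figure D5:**
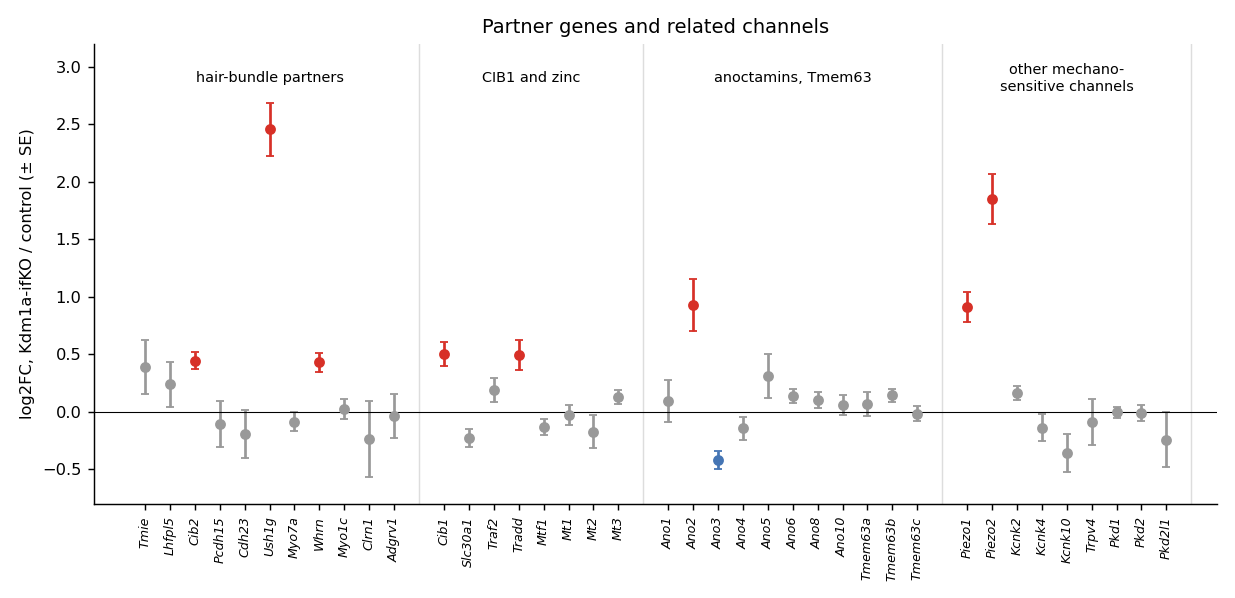
log2FC of Kdm1a-ifKO over control (vertical axis, bars are ± SE) of the 39 tested genes in the 4 lists; red marks genes called higher, blue lower and grey neither. Ush1g (2.46) and Piezo2 (1.85) lie highest, Ano3 (-0.42) is called lower, and most genes lie near 0.

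The genes whose log2 CPM ran most closely with that of Tmc6 over the 6 libraries were Ttc6 (Pearson r = 0.997), Cited1 (0.996) and Grm3 (0.995). For Tmc8 they were Bcl7a (r = 0.999), Crtac1 (0.996) and B4galt3 (0.995), while Tmc6 and Tmc8 had an r of 0.925 with each other. The genes named for each member have the highest r among all tested genes, so values near 1 follow in part from that choice. Tmc8 had only 4 to 31 counts per library. The points share the 6 libraries and their 2 groups, and the values describe these libraries only.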

How the data were processed

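RNA-seq counts of 3 control and 3 Kdm1a-ifKO hippocampi and CTCF loops of 1 ChIA-PET library were used. The authors trimmed single-end poly-A reads with cutadapt, aligned them to mm10 with HISAT2 and used HTSeq to count reads for each Ensembl identifier. These counts were deposited as whole numbers, unnormalized. For loops, the deposited counts of paired-end tags (PETs) came from ChIA-PIPE, and the authors kept those of at least 3 PETs with a CTCF peak at both anchors. The strand setting of the counting is not given in the sources used here, and the depth before loop calling is unknown.

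The genotypes were compared with the robust quasi-likelihood test of edgeR 4.0.16 under R 4.3.3, after filterByExpr and TMM, without covariates. P-values were adjusted by Benjamini-Hochberg over the 16799 genes kept, which were called at an adjusted p-value of 0.05. The fit was tested on simulated data. CPM used TMM-scaled library sizes, and TPM used the summed exon length in GENCODE M21. Of 48795 identifiers, 48349 were found there. Fold changes with a true 0 were not computed, and binomial intervals are exact at 95%. A loop was assigned to a gene if an anchor came within 10 kb of it. Sequences came from RefSeq and GRCm38.p6, read with pysam 0.24.0. P-values measure the spread between mice, 3 in each group.

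The members and lists were chosen with earlier results of these data known. Named genes are the 8 members, Kdm1a, overlapping and nearest tested genes, called genes of the lists with the partners needed to state a level, genes at far anchors and the 3 genes most correlated with Tmc6 or Tmc8. Alternatives were DESeq2 1.42.0, its size factors, upper-quartile scaling, no filter, at least 10 summed counts, a replicate block and each library left out. For levels, they were unshared exon bases and CPM, and for loops, other PET minimums and distances. The other samples of the series were not used here.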

Additional observations from a re-analysis of the deposited data

How the results depend on the processing

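Tmc6 kept its call and direction in all 12 alternative fits (log2FC 0.79 to 0.94), and Tmc8 in 11 (1.54 to 2.05), so that 1 to 2 members were called when a library was left out. Tmc4, Tmc7 and Tmc3 were called in none, and the log2FC of Tmc7 changed sign between -0.039 and 0.136 with the library left out (-0.019 and -0.027 without control replicates 1 and 2, -0.039 and -0.032 without Kdm1a-ifKO replicates 2 and 3). Over all genes, 1487 were called, against 2537 without the filter on low counts, of which 1090 were lower (473 with the filter), and leaving out a library gave 783 to 1460 (higher 646 to 876, lower 137 to 584). The smallest counts came without Kdm1a-ifKO replicate 3 (783) and without replicate 1 (899). Same-numbered libraries did not vary together (r of -0.032, -0.089 and -0.144), so the values gave no sign that the numbers pair the mice. Of the other pairs, control replicate 3 with Kdm1a-ifKO replicate 2 had an r of 0.157. The controls were littermates, and pairing by litter was not tested. With a replicate block 1046 genes were called, 249 of them lower, and the same number of members, 2. Of the genes next to members, 2 were called without the filter (Syngr2 and Aldh1a1), and 0 to 1 when a library was left out: Aldh1a1 without control replicate 2 (adjusted p = 0.0242) and Syngr2 without Kdm1a-ifKO replicate 1 (adjusted p = 0.00581). The lists gave 7 to 10 called genes under the alternatives.

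The 16 loops fell to 6 at 5 PETs and 3 at 10 PETs, were 7 within 5 kb of a start, and rose to 34 within 25 kb. The order of levels kept 6 of 8 ranks with CPM, where Tmc3 and Tmc8 changed places. The cause of these differences was not tested. Low counts limit Tmc1, Tmc2, Tmc3, Tmc5 and Tmc8, and 3 mice per group limit all tests.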
